A study of Mus musculus with 9 samples.

Results

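Ovaries of mice that had remained lean while eating a high-fat diet were compared with ovaries of mice kept on chow. All animals were C57BL/6J, an inbred laboratory strain, and were 15 weeks old after 10 weeks on their diet. The Control group held 3 mice fed standard chow with 16% fat, and the group named HFLN held 3 mice that received a diet with 60% fat and remained lean. A further 3 mice on the 60% fat diet became obese (HFOB), and their values stand beside the others where they help to read them. The comparison thus used 6 of the 9 samples of the series, and the HFLN group was defined by how its animals responded to the diet, not by assignment. Whole ovary was sampled, and messenger RNA was sequenced with a stranded kit. Expression is given as FPKM, fragments per kilobase of transcript relative to all mapped fragments. The values are the authors', 1 per group, each with the lower and upper bound that they deposited and that is printed in brackets. No value per animal, SD, n or p-value can be given, the depth is unknown, and the number of animals behind a difference is not known. A comparison was possible for 13599 of the 20975 protein-coding rows of the table, those with at least 1 FPKM in either group and a usable value in both.

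The ovary is remodelled through the estrous cycle. Follicles grow around oocytes, the surge of luteinizing hormone sets off ovulation, and the ruptured follicle becomes a corpus luteum that makes progesterone. The surge induces a short-lived program in granulosa cells, with transcription factors of the AP-1 and NR4A families, signals such as endothelin 2, and proteins that build and cut the matrix around the egg. Diets rich in fat are known for altering ovarian lipid handling, inflammation and cyclicity in rodents. Ovary sampled whole can carry along pieces of the oviduct and of the surrounding fat, whose genes were therefore followed too.

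The defining genes of ovary were present in both groups. The granulosa hormone Amh stood at 181 FPKM in Control and at 176 in HFLN, the granulosa transcription factor Foxl2 at 136 and 129, and the egg coat protein Zp3 at 52.2 and 52.96. The luteal prostaglandin receptor Ptgfr was likewise alike, at 78.6 and 78.1 FPKM. Not all markers were so close. The granulosa genes Inha and Fshr stood at 1712 and 16.8 FPKM in Control and at 1360 and 13.7 in HFLN. The luteal genes Lhcgr and Prlr, at 134 and 36.8 in Control, were higher in HFLN, at 143 and 39.9. The luteal gene Akr1c18 stood at 2672 in Control and at 1084 in HFLN. The theca genes Cyp17a1 and Insl3 stood at 346 and 61.2 in Control and at 183 and 38.5 in HFLN. T and B cell genes were scarce, with Cd3e and Ms4a1 under 1 FPKM in every group. Oviduct genes were present in all groups: the secretory glycoprotein Ovgp1 stood at 369 FPKM in Control, at 432 in HFLN and at 307 in HFOB. The fat cell hormone Adipoq was also measured in all of them, at 14.7, 11.9 and 21.5 FPKM.

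Few genes separated the groups. A row was called when its fold was at least 2 on the log2(FPKM + 1) scale, where low genes show less than their full difference, and the deposited intervals did not overlap. This held for 13 of 13599 protein-coding rows (0.0956%), 2 higher in HFLN (0.0147%) and 11 lower (0.0809%). With the summed FPKM of both groups made equal, 3 rows were called higher and 7 lower, and Srxn1, Brinp2 and Dusp5 lost the call. No further protein-coding row had intervals that lay apart at any fold. The median log2 fold over all 13599 rows was 0.00, with an interquartile range of -0.11 to 0.10. The bounds were wide: among 10209 rows of at least 5 FPKM, the median distance from the value to a bound was 41.3% of the value in Control and 40.5% in HFLN. Past 2-fold whatever the intervals lay 9 rows higher (0.0662%) and 64 lower (0.471%). Coordinates below are RefSeq gene spans on GRCm38.p6, which is the mm10 assembly, and a row covers all exons of its gene.

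The steepest difference was that of Sprr1a (chromosome 3, 92483954 to 92485881), a small proline-rich protein of squamous epithelium that is also induced by stress. It stood at 44.8 FPKM (18.0 to 71.5) in Control, at 0.664 (0 to 1.42) in HFLN and at 0.0977 in HFOB, so that Control was 67.4-fold above HFLN. Its interval in Control lay clear of both diet groups. Odaph (chromosome 5, 91987473 to 91995317), known for its part in tooth enamel, stood at 8.24 FPKM (2.24 to 14.2) in Control against 0.240 (0 to 0.911) in HFLN. HFOB was as low, at 0.146. Both genes have short transcripts, of 806 and 760 bases in GENCODE.

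The ovulatory signals Edn2 and Tnfaip6 were also called. Edn2 (chromosome 4, 120161206 to 120167360), the endothelin peptide that granulosa cells secrete around ovulation, stood at 52.1 FPKM (23.3 to 80.9) in Control and at 3.27 (0.893 to 5.64) in HFLN, a log2 fold of -3.64. Tnfaip6 (chromosome 2, 52038113 to 52056681), which links hyaluronan into the coat of the ovulated egg, had 7.47 FPKM (2.57 to 12.4) against 1.10 (0.185 to 2.01), a log2 fold of -2.01. The obese group was low in both, at 2.34 and 0.848 FPKM.

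Arc and Fosb, both genes of the immediate response to a stimulus, were lower as well. Arc (chromosome 15, 74669081 to 74672570), a cytoskeletal regulator induced within minutes in stimulated cells, stood at 6.43 FPKM (2.78 to 10.1) in Control and at 1.05 (0.275 to 1.83) in HFLN. Fosb (chromosome 7, 19302696 to 19310118), a subunit of the AP-1 transcription factor, stood at 5.75 (2.38 to 9.12) and 1.08 (0.268 to 1.89). Dusp5 (chromosome 19, 53529145 to 53541809), a nuclear phosphatase that switches ERK off, was higher in level, at 18.7 FPKM (10.3 to 27.0) in Control and at 6.95 (3.66 to 10.2) in HFLN. Its intervals lay just apart, with a gap from 10.2 to 10.3 FPKM.

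Srxn1, Brinp2 and the histone H3c2 were the other genes called lower that are named here. Srxn1 (chromosome 2, 152105524 to 152111376), the sulfiredoxin that restores inactivated peroxiredoxins, stood at 55.4 FPKM (26.4 to 84.5) in Control, at 17.4 (11.3 to 23.6) in HFLN and at 13.9 in HFOB. Brinp2 (chromosome 1, 158245265 to 158356528), a neural protein of the BRINP family, stood at 7.65 (3.97 to 11.3), 2.32 (0.932 to 3.71) and 2.38. H3c2 (chromosome 13, 23752345 to 23752840), a replication-dependent histone, was the exception among the named genes in that the obese group did not share the low value: 2.18 FPKM (1.28 to 3.09) in Control, at 0.260 (0 to 0.566) in HFLN and at 4.28 in HFOB. For the other 9 named genes, HFOB was as low as HFLN or nearly so. HFLN and HFOB were set against the same Control mice, so these values are not independent of each other.

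**Figure D1:**
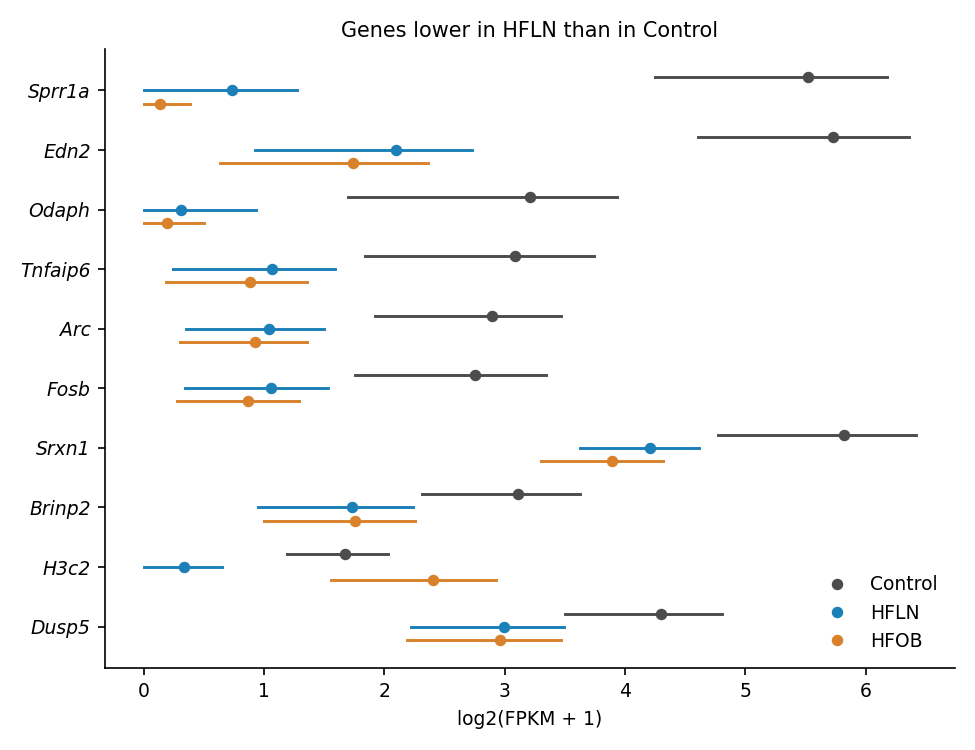
Level of the 10 named genes called lower in HFLN, one row per gene, on the log2(FPKM + 1) axis. Points are the authors' group values and lines their deposited intervals for Control, HFLN and HFOB; the Control and HFLN lines do not meet in any row, and H3c2 is the gene whose HFOB point lies above Control.

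The rows called higher were Pramel51 and a merged row. Pramel51 (chromosome 12, 88175589 to 88181894) was listed at 0 (0 to 0) in Control and HFOB and at 16.5 FPKM (11.2 to 21.9) in HFLN, so no fold is given. With Control bounds of 0 to 0, any HFLN lower bound above 0 sets the intervals apart, so the interval rule did not restrict this call. The other row merges Igf2bp1, which encodes an RNA-binding protein of growing tissues, with the microRNA gene Mir3063, and stood at 0.0365 FPKM (0 to 0.793) in Control, at 7.84 (6.72 to 8.97) in HFLN and at 0.0485 in HFOB. A row that merges genes cannot tell their reads apart. The same holds for near-identical gene copies, and for a gene and a partner on the opposite strand, since the strand setting of the counting is not stated here.

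The promoters of the called genes are shown because 4 of them share a short element, 1 of several that were searched. The sequence TGANTCA, the binding element of AP-1, was searched in the 250 bases before each RefSeq start, on both strands (the element reads the same on either). It was present in 4 of the 8 called-lower genes with a promoter entry (50%), and in 560 of 10014 tested protein-coding genes (5.59%). The same count was made in lists described below. Of those higher in HFLN, it was in 5 of 24 interferon-stimulated promoters (20.8%) and 5 of 30 motile cilia promoters (16.7%). Of those lower as deposited, it was in 3 of 11 NRF2-type antioxidant promoters (27.3%) and 1 of 21 early response promoters (4.76%). None of 12 ERK feedback promoters held it. A match is a description of the letters and was not tested as a site. The 100-base stretches around the matches follow, 5′ to 3′ on the strand of the gene, from RefSeq on GRCm38.p6, with the matches in capitals.
Sprr1a, minus strand, chr3:92485952-92486051: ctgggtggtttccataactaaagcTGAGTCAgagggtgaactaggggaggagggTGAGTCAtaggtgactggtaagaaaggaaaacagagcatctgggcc
Srxn1, plus strand, chr2:152105394-152105493: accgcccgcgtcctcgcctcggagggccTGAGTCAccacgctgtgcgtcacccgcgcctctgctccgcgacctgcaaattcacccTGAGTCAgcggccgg
Tnfaip6, plus strand, chr2:52037923-52038022: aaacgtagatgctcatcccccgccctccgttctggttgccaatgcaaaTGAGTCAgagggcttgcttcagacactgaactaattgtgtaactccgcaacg
Odaph, plus strand, chr5:91987343-91987442: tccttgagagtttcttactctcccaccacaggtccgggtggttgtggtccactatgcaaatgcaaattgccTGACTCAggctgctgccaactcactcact
The matches began 146 and 116 bases before the start of Sprr1a, 102 and 45 bases before that of Srxn1, 142 before that of Tnfaip6 and 59 before that of Odaph. Edn2, Fosb, Dusp5 and H3c2 held none in this window. The cyclic AMP response element TGACGTCA was found in none of these 8 promoters and in 3.01% of the tested genes.

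Below the called genes lay others, some of them abundant, whose fold was past 2 but whose intervals met. Nupr1, a small chromatin protein induced by stress, stood at 1168 FPKM (265 to 2070.2) in Control, at 346 (213 to 479.6) in HFLN and at 371 in HFOB. Timp1, the inhibitor of matrix metalloproteinases, stood at 597 (57.7 to 1135), 192 (76.4 to 307) and 163. In both the Control interval reached down into the range of HFLN. Wnt7b, a secreted Wnt ligand, had 7.84 FPKM (3.49 to 12.2) in Control against 2.11 (0.707 to 3.52) in HFLN, so that the intervals overlapped from 3.49 to 3.52 FPKM. Rem2, a small GTPase that restrains calcium channels, had 5.85 (1.86 to 9.84) and 1.38 (0.361 to 2.40). Uchl1, a deubiquitinating enzyme abundant in oocytes, stood at 233 (122 to 343) in Control and at 115 (75.2 to 155) in HFLN.

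Among rows of at least 5 FPKM with 1 symbol, the highest log2 folds after Pramel51 were much smaller. Meig1, a gene of flagellum assembly, had a log2 fold of 1.25, from 4.64 FPKM (0 to 10.4) to 12.4 (4.02 to 20.8), and Ssu2 had 1.22, from 5.17 (1.87 to 8.47) to 13.4 (5.68 to 21.0). Wfdc2, a secreted protease inhibitor of reproductive tract epithelium, stood at 31.3 FPKM (11.2 to 51.5) in Control, at 69.99 (30.2 to 109.8) in HFLN and at 64.2 in HFOB. It was thus high in both diet groups. Parvb, an adaptor of cell adhesions to matrix, stood at 14.2 (8.88 to 19.5), 28.2 (16.6 to 39.7) and 13.0, and so was high in the lean group alone by its group values. All of these intervals overlapped between Control and HFLN.

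Lists of genes that act together were then read as groups. A list is described by how many measured members were higher or lower in HFLN, how many lay past 1.5-fold, and its median log2 fold. Over all protein-coding rows the same counts were 6925 higher (50.9%), 6674 lower (49.1%), 105 past 1.5-fold higher (0.772%) and 203 past 1.5-fold lower (1.49%). The summed FPKM of protein-coding rows differed, at 542222 in Control and at 467133 in HFLN, so each direction was also read with these sums made equal. That scaling moved the median log2 fold of rows of at least 5 FPKM from -0.01 to 0.19. It turned the sign of the median in 18 of 47 lists, 14 of which lay within 0.1 of 0 as deposited. A list median near 0.19 with equal sums is thus near that of rows in general, and a smaller one lies below them. The share of all rows that were higher with equal sums was not counted. Part of the gap between the sums lay in the 3 rows of Cmss1, Filip1l and Lars2, which held 6.45% of the sum in Control and 1.19% in HFLN. Without them the sums were 507273 and 461592. Making those equal, an alternative chosen after the data were seen, moved the median of rows of at least 5 FPKM to 0.12.

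**Figure D2:**
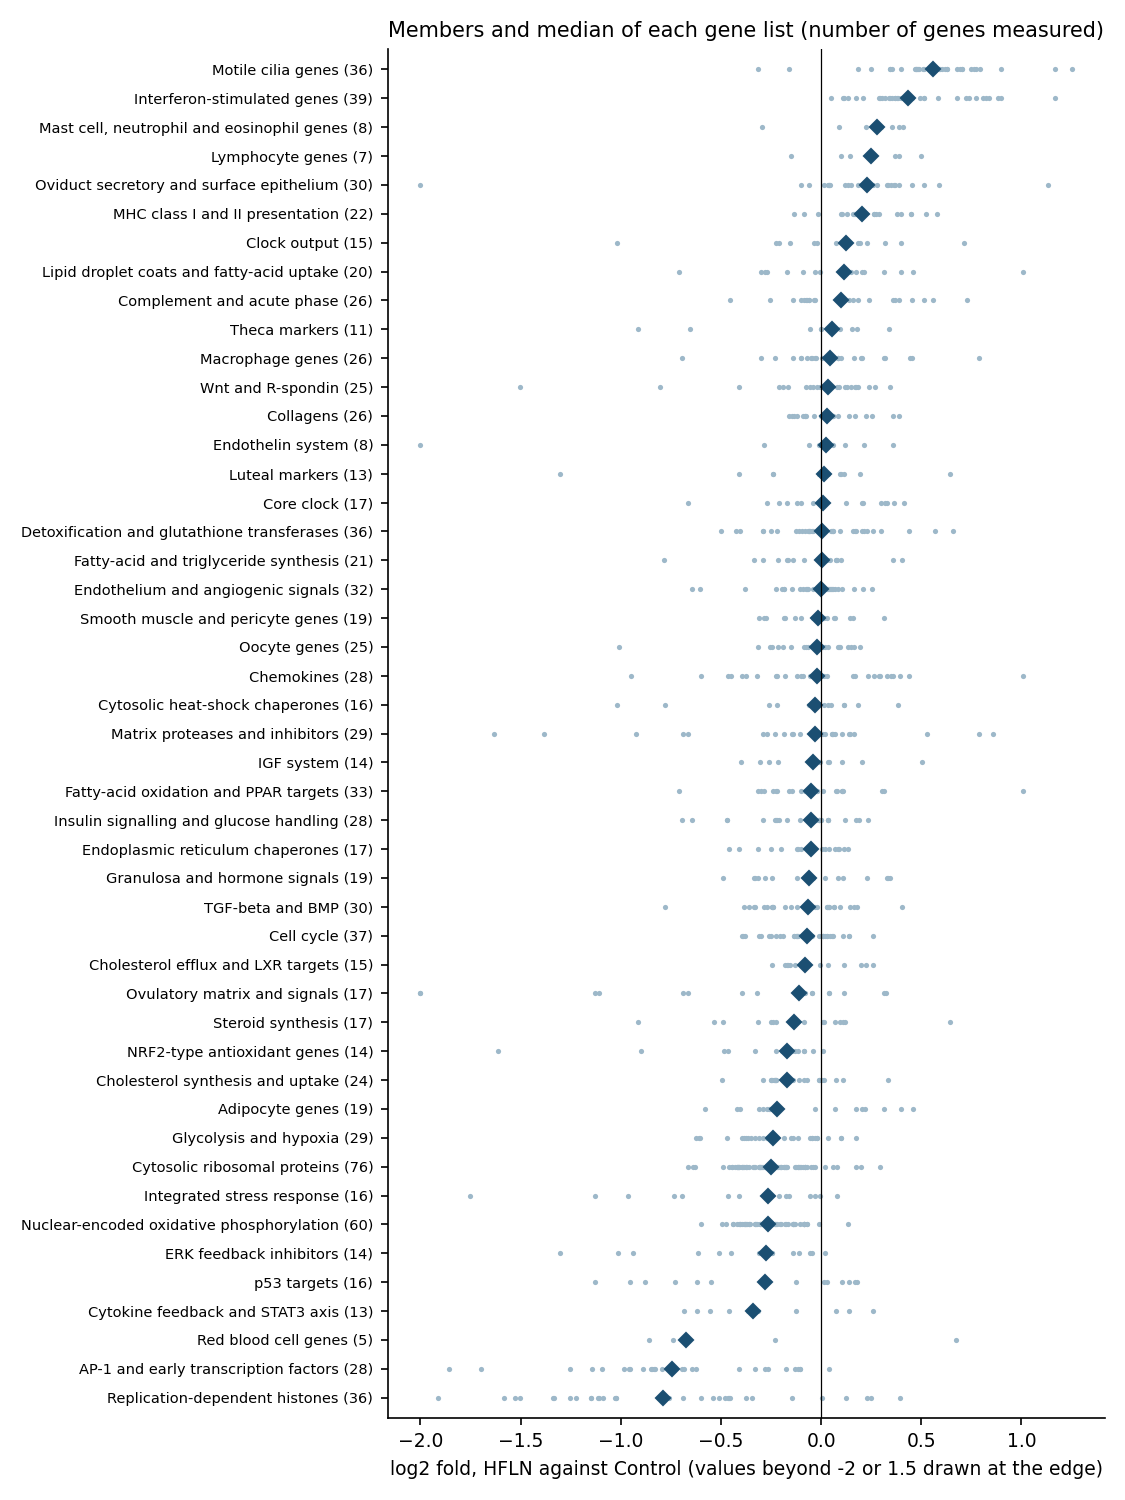
Log2 fold of HFLN against Control (horizontal axis, values beyond -2 or 1.5 drawn at the edge) for every measured member of 47 gene lists, with the number of members in brackets. Small points are genes and diamonds list medians. Motile cilia genes (0.56) and interferon-stimulated genes (0.44) are at the top. Replication-dependent histones (-0.79) and early response genes (-0.75, labelled AP-1 and early transcription factors) are at the bottom.

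The early response genes were lower almost throughout. These are genes that stimulated cells switch on without new protein synthesis. Most members of the list are transcription factors, but some, such as Arc and Ier3, are not. Of 28 measured, 27 were lower in HFLN and 18 of them past 1.5-fold, with a median log2 fold of -0.75 (22 lower with equal sums, median -0.58). The AP-1 subunit Junb stood at 82.5 FPKM (45.9 to 119) in Control, at 34.0 (20.9 to 47.1) in HFLN and at 45.0 in HFOB. The orphan nuclear receptor Nr4a1, induced by luteinizing hormone, stood at 42.8 (24.0 to 61.5), 19.5 (11.9 to 27.0) and 15.3. Both pairs of intervals met narrowly. Jun was at 112 and 62.3 FPKM in Control and HFLN, Fos at 14.6 and 7.99, Egr1 at 52.5 and 33.3, and the stress factor Atf3 at 13.7 and 6.91. Fosl2, a further AP-1 subunit, was the exception, at 65.3 and 67.1 FPKM. Factors of the Klf family differed less: Klf4 stood at 11.4 and 10.4 FPKM, Klf6 at 30.2 and 27.8. In HFOB, measured against the same Control, the list median was -0.63. Taking out the trend with transcript length left the HFLN median at -0.75.

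Red blood cell genes were low beside them. Of 5 measured, 4 were lower and 3 of these past 1.5-fold, with a median of -0.68 (4 lower and -0.51 with equal sums). The beta globin Hbb-bs stood at 179 FPKM (90.6 to 267) in Control, at 98.2 (41.6 to 155) in HFLN and at 129.8 in HFOB. The alpha globin Hba-a1 stood at 60.0 (32.6 to 87.5), 35.6 (16.3 to 54.9) and 47.3. Both are in rows that merge 2 symbols. The list summed to 246 FPKM in Control, to 139.5 in HFLN and to 185 in HFOB. The part of blood content in the early response gene values was not tested.

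Genes that signalling pathways induce to shut themselves off were low beside the early response genes. Of 14 ERK feedback inhibitors, 13 were lower and 4 past 1.5-fold, with a median of -0.28 (9 lower with equal sums, median -0.10). After Dusp5 the widest was Errfi1, an inhibitor of the EGF receptor, at 59.9 FPKM (36.1 to 83.8) in Control and at 29.2 (19.1 to 39.2) in HFLN. Dusp4, a phosphatase of ERK, stood at 4.82 (2.53 to 7.12) and 2.03 (0.898 to 3.17). Of 13 cytokine feedback genes 10 were lower and 2 past 1.5-fold, with a median of -0.34 (9 lower and -0.14 with equal sums). Socs1, an inhibitor of JAK kinases, stood at 37.2 FPKM (15.6 to 58.8) and 23.9 (7.48 to 40.2). Il6 was barely measurable, at 1.11 FPKM (0 to 2.41) in Control and at 0.312 (0 to 0.666) in HFLN.

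Genes of cellular stress divided into lists that were mostly lower and lists that were split. Among 16 p53 targets, 10 were lower, 5 past 1.5-fold, with a median of -0.28 (9 lower and -0.08 with equal sums). The cell cycle inhibitor Cdkn1a stood at 49.9 FPKM (26.6 to 73.2) in Control, at 22.3 (14.3 to 30.3) in HFLN and at 16.3 in HFOB. Gadd45a, Gadd45b and Gadd45g, sensors of stress and DNA damage, were all lower, Gadd45a at 191 (113 to 269) and 115 (75.2 to 155). Of 16 genes of the integrated stress response, which follows a block of translation, 15 were lower and 5 past 1.5-fold, with a median of -0.27 (9 lower and -0.07 with equal sums). Its transcription factors Ddit3 and Atf4 stood at 106 (18.5 to 193) and 236 (141 to 332) FPKM in Control and at 53.8 (22.4 to 85.1) and 171 (113 to 229) in HFLN. All these intervals overlapped. The 17 chaperones of the endoplasmic reticulum were split as deposited, 8 higher and 9 lower, none past 1.5-fold, with a median of -0.05. With equal sums 13 were higher and 4 lower, with a median of 0.16. The 16 cytosolic heat-shock chaperones were 7 higher and 9 lower, 2 past 1.5-fold lower, with a median of -0.03 (12 higher and 0.18 with equal sums). Within the latter the inducible Hspa1a differed most, at 25.1 FPKM (15.2 to 34.9) and 11.9 (6.52 to 17.2).

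Antioxidant genes of the NRF2 type were lower in 13 of 14 cases, 2 past 1.5-fold, with a median log2 fold of -0.17 that turned to 0.035 with equal sums (6 lower). Outside Srxn1 the widest was Hmox1, the heme-degrading enzyme, at 86.1 FPKM (46.7 to 126) in Control, at 45.8 (29.3 to 62.2) in HFLN and at 45.3 in HFOB. The metallothioneins Mt1 and Mt2 stood at 876 (514 to 1237) and 373 (239 to 507) FPKM in Control and 625 (407 to 844) and 269.8 (179 to 360.4) in HFLN. Txnrd1, a thioredoxin reductase, was close, at 48.3 and 42.1. The antioxidant response element TGACNNNGC was in 5 of the 11 promoters of this list that had an entry (45.5%) and in 14% of the tested genes. The list was made of NRF2-type genes, so this share too describes the list and not the difference between groups. Of 29 genes of glycolysis and hypoxia, 25 were lower and 3 past 1.5-fold, with a median of -0.24 (15 lower and -0.03 with equal sums). The hypoxia gene Ndrg1 stood at 30.1 (18.6 to 41.6) and 19.4 (12.6 to 26.2), and the vasodilator peptide Adm at 19.4 (10.3 to 28.6) and 12.4 (6.33 to 18.5). The glucose transporter Slc2a1 stood at 31.8 FPKM (19.2 to 44.3) and 19.97 (12.5 to 27.4).

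**Figure D3:**
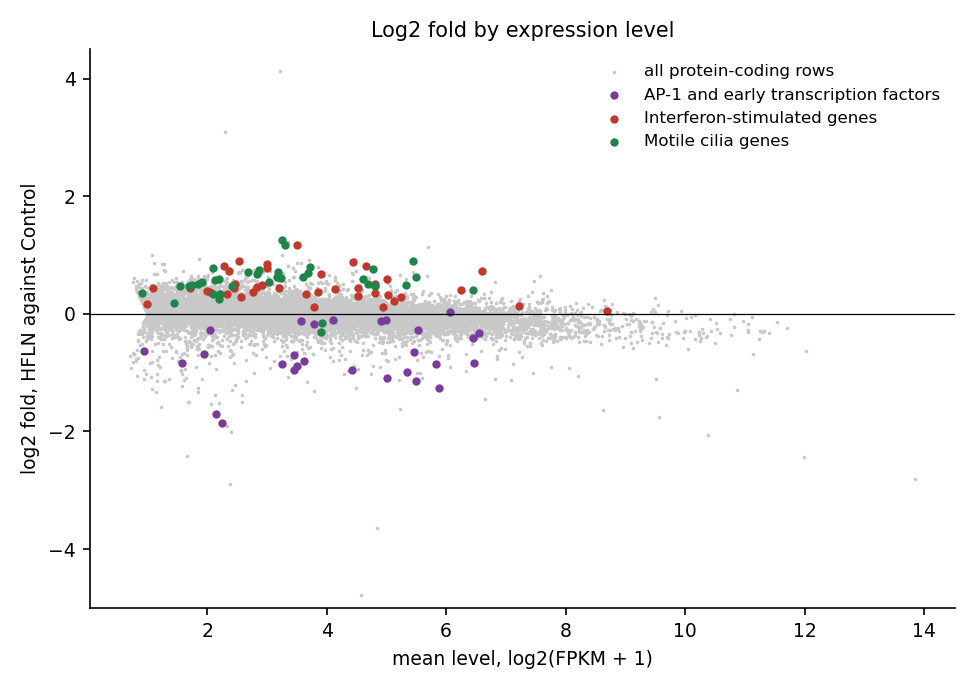
Log2 fold of HFLN against Control (vertical axis) by mean level of both groups as log2(FPKM + 1) (horizontal axis), 1 point per protein-coding row. Early response genes, labelled AP-1 and early transcription factors, lie below zero except Fosl2. Interferon-stimulated genes all lie above it, and 34 of 36 motile cilia genes lie above it.

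The ovulatory program was mixed. Its list includes the called genes Edn2 and Tnfaip6, which are part of the counts that follow. Of 24 genes listed 17 were measurable, 12 of them lower and 6 past 1.5-fold, with a median log2 fold of -0.11 that turned to 0.049 with equal sums (8 lower). Cebpb, a transcription factor that granulosa cells need for luteinization, stood at 186 FPKM (42.8 to 329) in Control, at 84.5 (31.9 to 137) in HFLN and at 122 in HFOB. Rgcc, a cell cycle regulator, stood at 153 (92.1 to 214), 70.6 (43.1 to 98.1) and 102. Its intervals met by only a few FPKM. The proteoglycan-cutting proteases Adamts1 and Adamts4 stood at 31.0 (20.6 to 41.3) and 5.63 (0 to 11.9) FPKM in Control and 19.2 (12.5 to 25.8) and 3.11 (0 to 7.04) in HFLN. The hyaluronan synthase Has2 and the prostaglandin synthase Ptgs2 stayed below 1 FPKM in Control and HFLN and were left out. In the endothelin system only Edn2 lay past 1.5-fold among 8 measured genes. Edn1 stood at 4.01 (1.31 to 6.72) and 4.82 (1.79 to 7.86) FPKM, Edn3 at 1.87 (0.681 to 3.06) and 2.68 (1.12 to 4.24), and the converting enzyme Ece1 at 76.5 (47.8 to 105) and 73.4 (46.9 to 99.9).

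Interferon-stimulated genes were higher in HFLN without exception. These encode sensors and effectors against viruses, and type I and type II interferons induce them. All 39 measured members were higher, 11 past 1.5-fold and none called, with a median log2 fold of 0.44 (all 39 higher with equal sums, median 0.61). Irf7, the transcription factor that amplifies the response, stood at 14.3 FPKM (8.05 to 20.5) in Control, at 27.2 (16.7 to 37.6) in HFLN and at 12.8 in HFOB. Oas2, an enzyme that senses double-stranded RNA, stood at 4.76 (2.203 to 7.32), 9.31 (5.06 to 13.6) and 5.48. Both genes were low in Control and in the obese group, and the HFLN interval overlapped that of Control. Isg15, a ubiquitin-like modifier, stood at 17.3 (7.57 to 27.0), 31.0 (16.0 to 46.0) and 16.1, and Usp18, the protease that removes it, at 4.89 (2.05 to 7.73), 9.06 (4.42 to 13.7) and 3.92. The most abundant member, the membrane tether Bst2, differed least, at 405 FPKM in Control and at 419 in HFLN.

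Other genes of the interferon response were higher by less than Irf7. Stat2, which carries the interferon signal to the nucleus, stood at 19.6 FPKM in Control and at 24.5 in HFLN, and its partner Irf9 at 31.3 and 36.4. The chemokine Cxcl10 was low, at 4.32 and 5.51. Summed over the list, FPKM came to 1073 in Control, to 1326 in HFLN and to 1074 in HFOB. Against the same Control, the list median in HFOB was -0.05, with 13 members higher and 26 lower. The difference between the diet groups was not tested, since no spread between animals is available.

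The core of the interferon-stimulated response element, GAAA followed after any 2 bases by GAAA, was searched in the same 250 bases on both strands. It was in 11 of the 24 promoters of this list that had an entry (45.8%), and in 306 of 10014 tested genes (3.06%). The list was made of genes that interferons induce, so this share describes the list and not the difference between groups. Ifit1, which binds foreign RNA, and Isg15 are shown because each holds more than 1 match. Bases in capitals mark the matches, 5′ to 3′ on the strand of the gene, from RefSeq on GRCm38.p6.
Ifit1, plus strand, chr19:34640749-34640848: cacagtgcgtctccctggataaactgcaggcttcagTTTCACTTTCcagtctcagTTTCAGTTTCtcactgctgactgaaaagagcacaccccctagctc
Isg15, minus strand, chr4:156200839-156200938: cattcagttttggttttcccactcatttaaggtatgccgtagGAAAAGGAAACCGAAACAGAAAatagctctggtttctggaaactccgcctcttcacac
In Ifit1 both matches lie on the opposite strand, beginning 104 and 85 bases before the start, and in Isg15 3 overlapping matches begin 78, 72 and 66 bases before it. The other promoters with a match were those of Bst2, Cxcl10, Gbp3, Gbp7, Irgm1, Oas1a, Rsad2, Stat2 and Trim30a. Of these, Gbp3 had the widest fold, from 10.6 FPKM in Control to 17.5 in HFLN.

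Antigen presentation genes went the same way with smaller folds. Of 22 genes of MHC class I and II presentation, 19 were higher, none past 1.5-fold, with a median of 0.21 (22 higher and 0.41 with equal sums). The class I heavy chain H2-K1 stood at 185 FPKM (122 to 249) in Control, at 245 (153 to 337) in HFLN and at 212 in HFOB. Nlrc5, the transactivator of class I genes, stood at 4.43 (1.41 to 7.45), 6.42 (2.78 to 10.0) and 5.04. Leukocyte genes were measured beside them. Of 26 macrophage genes 15 were higher and 11 lower, 1 past 1.5-fold each way, with a median of 0.04 (23 higher and 0.23 with equal sums), and their summed FPKM was 1219 in Control but 1172 in HFLN, with 1375 in HFOB. Only 7 of 19 lymphocyte genes were measurable, 6 of them higher (6 with equal sums), with a median of 0.25 and a sum of 9.64, 12.6 and 11.4 FPKM. The pan-leukocyte gene Ptprc stood at 2.61 (1.31 to 3.91) in Control and at 3.72 (2.02 to 5.42) in HFLN. Of 8 mast cell and granulocyte genes 7 were higher, with a median of 0.28 (7 higher and 0.46 with equal sums). Of 28 chemokines 14 were higher and 14 lower, 1 and 2 past 1.5-fold, with a median of -0.02 (18 higher and 0.18 with equal sums). Of 26 complement and acute phase genes 15 were higher, 1 past 1.5-fold, with a median of 0.097 (24 higher and 0.30 with equal sums). The part of immune cells in the interferon and MHC values was not tested. In bulk tissue, more cells of a type and more RNA per cell cannot be told apart.

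Genes of motile cilia were the list with the highest median. Motile cilia beat on the ciliated cells that line the oviduct, and Foxj1 is the transcription factor that builds them. Of 36 measured members, 34 were higher in HFLN, 17 past 1.5-fold and none called, with a median of 0.56 (35 higher and 0.74 with equal sums). Foxj1 stood at 19.4 FPKM (10.6 to 28.1) in Control, at 33.5 (18.5 to 48.5) in HFLN and at 15.6 in HFOB. Ccdc153, a component of the axonemal dynein regulatory complex, stood at 29.4 (14.2 to 44.6), 55.6 (12.1 to 99.0) and 21.5. In each case HFLN had the highest value and HFOB the lowest, with wide and overlapping intervals. Dnah5, an outer arm dynein motor, stood at 4.44 (1.45 to 7.42), 8.13 (1.42 to 14.8) and 3.44, and the microtubule protein Tekt4 at 4.48, 7.76 and 3.31. Dnah2 and Ccno were the members that were lower, at 15.7 and 15.0 FPKM in Control and 12.4 and 13.3 in HFLN. Summed over the list, FPKM came to 386 in Control, to 582 in HFLN and to 297 in HFOB. The HFOB median against the same Control was -0.29, with 30 of 36 members lower.

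Markers of oviduct and surface epithelium moved with the cilia genes. Of 30 measured members 27 were higher, 2 past 1.5-fold, with a median of 0.23 (29 higher and 0.44 with equal sums), and Sprr1a was among the 3 that were lower. The tight junction protein Cldn3 stood at 31.0 FPKM (16.2 to 45.9) in Control, at 47.1 (26.9 to 67.2) in HFLN and at 38.8 in HFOB. Pax8, a transcription factor of oviduct secretory cells, stood at 4.35 (1.73 to 6.97), 6.34 (2.84 to 9.84) and 4.05. These are the genes of a neighbouring tissue as well as of the ovarian surface. Upk3b and Msln, markers of the surface epithelium and mesothelium, were closer, with Upk3b at 11.0, 12.02 and 12.3 FPKM and Msln at 10.6, 11.0 and 8.98. The summed level of the list was 1130.3 in Control but 1334 in HFLN, with 1042 in HFOB. None of the oviduct markers examined was at 0 in any group, and the part of oviduct tissue in the cilia values was not tested.

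**Figure D4:**
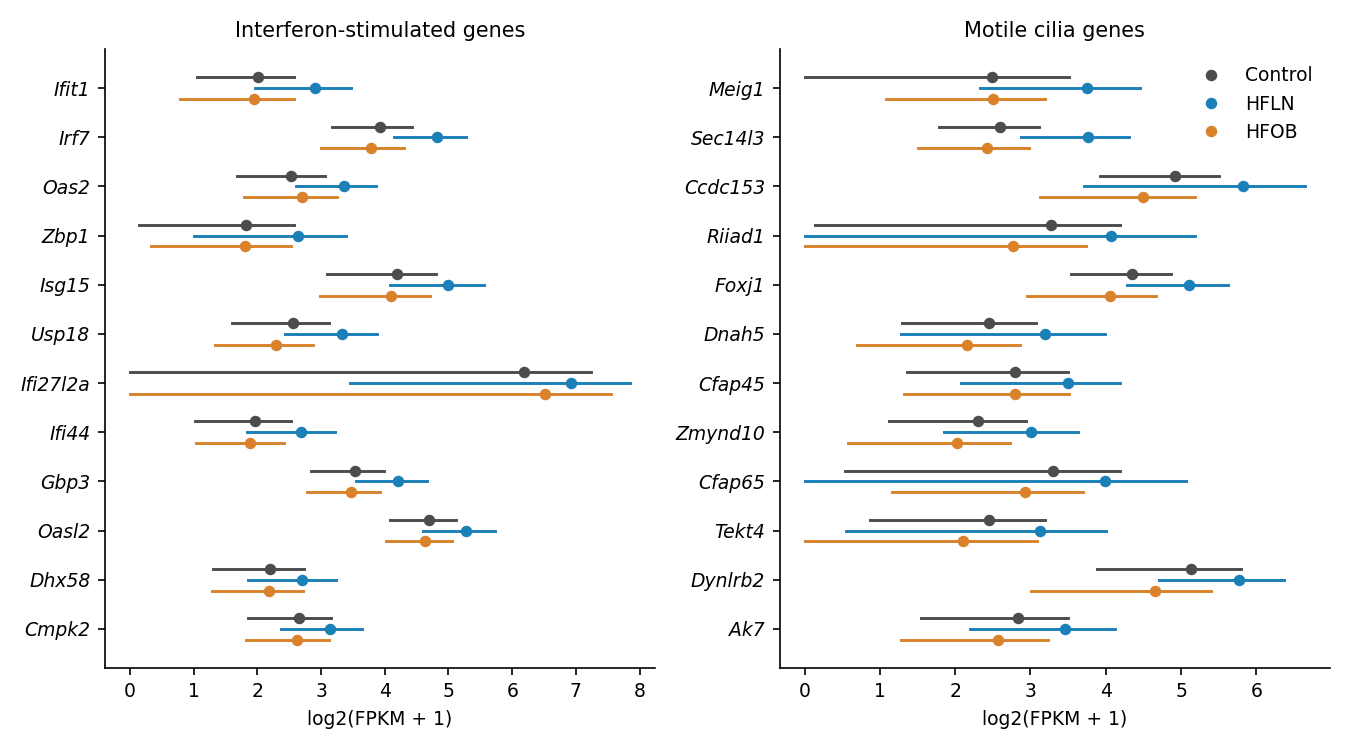
Level of the 12 interferon-stimulated genes (left) and 12 motile cilia genes (right) with the widest positive log2 fold among rows of at least 5 FPKM and 1 symbol, as log2(FPKM + 1). Points are the authors' group values and lines the deposited intervals; HFLN is the rightmost point in every row, and its line overlaps that of Control throughout.

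Lipid genes differed little. Of 33 genes of fatty-acid oxidation and PPAR targets, 24 were lower, 1 lay past 1.5-fold on either side, and the median was -0.05 (7 lower and 0.16 with equal sums). Plin5, which coats lipid droplets in cells that burn fat, was the one past it upward, at 5.34 FPKM (2.29 to 8.40) in Control, at 11.8 (6.09 to 17.4) in HFLN and at 9.54 in HFOB. Fabp3, a cytosolic fatty-acid carrier, was the one downward, at 10.6 (0 to 23.6), 6.06 (0 to 15.1) and 7.06. The fatty-acid transporter Cd36 stood at 13.7 (8.74 to 18.6), 17.3 (11.3 to 23.2) and 17.5. Both diet groups were thus above Control in Plin5 and Cd36 by their group values, with overlapping intervals. Of 20 genes of lipid droplets and uptake 12 were higher, 1 past 1.5-fold on either side, with a median of 0.12 (16 higher and 0.32 with equal sums). Of 36 detoxification genes 18 were higher and 18 lower, 1 past 1.5-fold higher, with a median of 0.0044 (29 higher and 0.19 with equal sums).

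Synthesis of fat and sterols showed no member past 1.5-fold but Scd1. This desaturase makes monounsaturated fat, and it stood at 22.3 FPKM (14.7 to 29.9) in Control, at 12.5 (7.86 to 17.1) in HFLN and at 17.7 in HFOB. The fatty-acid synthase Fasn stood at 49.7 (21.8 to 77.6), 39.2 (21.5 to 56.9) and 38.9. Over the 21 genes of fatty-acid and triglyceride synthesis the median was 0.00 (0.21 and 17 higher with equal sums). Of 24 genes that make or take up cholesterol, 19 were lower, with a median of -0.17 that turned to 0.038 with equal sums (10 lower). Msmo1, an enzyme of sterol demethylation, stood at 126 FPKM (80.4 to 171) in Control, at 103 (67.8 to 137) in HFLN and at 92.9 in HFOB. Its intervals overlapped, and its value was lowest in the obese group. Of 15 genes of cholesterol efflux 10 were lower, none past 1.5-fold, with a median of -0.08 (1 lower and 0.13 with equal sums). Genes of fat cells were 7 higher and 12 lower of 19, with a median of -0.22 (8 higher and -0.03 with equal sums), and in HFOB the median was 0.04. The fat cell hormone Retn stood at 19.5 FPKM (7.36 to 31.7) in Control and at 12.8 (3.91 to 21.6) in HFLN.

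Steroid synthesis genes lay on both sides of Control. Of 17 steroid synthesis genes, 7 were higher and 10 lower, 1 past 1.5-fold each way, with a median of -0.14 that turned to 0.079 with equal sums (7 lower). Star, which brings cholesterol into mitochondria, was the one upward, at 147 FPKM (83.6 to 211) in Control and at 230.5 (84.1 to 377) in HFLN. Cyp17a1, the androgen-making enzyme of theca cells, was the one downward, at 346 (154 to 539) and 183 (97.5 to 269). Insl3, a further theca product, stood at 61.2 (0 to 124) and 38.5 (5.15 to 71.9), in a row that merges it with another gene. The hedgehog target Gli1, also a theca marker, was close, at 10.3 (6.10 to 14.5) and 11.8 (7.02 to 16.6). Of 11 theca markers 6 were higher and 5 lower, 2 past 1.5-fold lower, with a median of 0.05 (9 higher and 0.20 with equal sums).

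Luteal, granulosa and oocyte genes had medians near 0 as deposited. With equal sums their medians lay around the 0.19 of rows of at least 5 FPKM in general. Of 13 luteal genes 7 were higher, 1 past 1.5-fold each way, with a median of 0.01 (9 higher and 0.23 with equal sums), and Akr1c18, the enzyme that inactivates progesterone as the corpus luteum regresses, stood at 2672 FPKM (0 to 7173) in Control and at 1084 (0 to 2614) in HFLN. Its lower bound was 0 in both groups, and its row merges more than 1 gene. Of 19 granulosa genes 12 were lower, with a median of -0.06 and no member past 1.5-fold (6 lower and 0.15 with equal sums). Inha and Inhbb, inhibin subunits, stood at 1712 (529 to 2895) and 208 (125 to 291) FPKM in Control and 1360.4 (532 to 2188) and 165 (101 to 229) in HFLN. Of 25 oocyte genes 10 were higher and 15 lower, 1 past 1.5-fold lower, with a median of -0.02 (20 higher and 0.17 with equal sums). The oocyte growth factors Gdf9 and Bmp15 stood at 51.4 and 8.38 FPKM in Control and 50.7 and 9.73 in HFLN.

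Structural and vascular lists also had medians near 0 as deposited, with single members farther out. Of 26 collagens 17 were higher, none past 1.5-fold, with a median of 0.03 (25 higher and 0.22 with equal sums). Col6a1, a subunit of microfibril collagen, stood at 311 FPKM (152 to 471) in Control and at 350.3 (179 to 521) in HFLN. Of 29 matrix proteases and inhibitors 13 were higher and 16 lower, 2 past 1.5-fold higher and 5 lower, with a median of -0.03 (20 higher and 0.17 with equal sums). Plaur, the urokinase receptor, stood at 9.82 (4.22 to 15.4) and 4.71 (1.75 to 7.67), while Timp4 stood at 7.11 (0 to 15.3) and 13.7 (2.65 to 24.8) and Mmp12, a macrophage elastase, at 2.76 (1.28 to 4.24) and 5.50 (2.88 to 8.11). The inhibitors Timp1 and Timp4 thus lay on opposite sides of Control by their group values. The 32 endothelial genes were split 16 to 16 as deposited, 2 past 1.5-fold lower, with a median of -0.00084. With equal sums 28 were higher and 4 lower, with a median of 0.19. Rows of at least 5 FPKM as a whole also had a median of 0.19 on that scale. Of 19 genes of smooth muscle and pericytes 11 were lower, none past 1.5-fold, with a median of -0.02 (3 lower and 0.19 with equal sums).

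Signalling lists gave single genes apart from the rest. Tgfb1, a growth factor of matrix-making cells, was the member past 1.5-fold among 30 TGF-beta and BMP genes, at 57.0 FPKM (34.4 to 79.6) in Control and at 32.8 (20.7 to 44.8) in HFLN. Of these 30 genes 18 were lower, with a median of -0.06 (11 lower and 0.10 with equal sums). Of 25 Wnt and R-spondin genes 14 were higher and 11 lower, with a median of 0.04 (20 higher and 0.24 with equal sums). Besides Wnt7b, the secreted Wnt antagonist Sfrp2 lay past 1.5-fold, at 10.1 (4.77 to 15.4) and 5.34 (2.31 to 8.37). Of 14 IGF system genes 9 were lower, none past 1.5-fold, with a median of -0.04 (4 lower and 0.17 with equal sums). Of 28 insulin signalling genes 21 were lower, 2 past 1.5-fold, with a median of -0.05 (9 lower and 0.15 with equal sums). In the core clock the repressor Bhlhe40 stood at 37.5 FPKM (23.02 to 52.0) and 23.3 (15.3 to 31.3), while Per3 stood at 5.27 (3.16 to 7.39) and 7.07 (4.44 to 9.70). Of its 17 genes 9 were higher, 1 was past 1.5-fold lower, and the median was 0.01 (14 higher and 0.21 with equal sums). Of 15 clock output genes 9 were higher, 1 past 1.5-fold each way, with a median of 0.13 (12 higher and 0.33 with equal sums). Of 37 cell cycle genes 24 were lower, none past 1.5-fold, with a median of -0.07 (9 lower and 0.13 with equal sums).

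Transcript length moved with the fold. Among rows of at least 5 FPKM, the 562 genes with transcripts from 500 to under 1000 bases had a median log2 fold of -0.22, and 82.7% of them were lower in HFLN. The median was -0.12 in the 999 genes from 1000 to under 1500 bases, -0.01 in the 2325 genes from 2000 to under 3000 bases and 0.03 in the 1917 genes of 5000 bases or more, where 38.5% were lower. In HFOB the same medians ran from -0.09 to -0.00. The lists with median lengths under 1000 bases had medians below 0. These were red blood cell genes, replication-dependent histones, ribosomal proteins and oxidative phosphorylation. The lymphocyte and mast cell lists, with median lengths of 1195 and 1283.5 bases, had medians of 0.25 and 0.28. They hold 7 and 8 measured genes, most of them below the 5 FPKM required for the length classes. Of 60 nuclear-encoded subunits of oxidative phosphorylation, with a median length of 863 bases, 59 were lower, with a median of -0.27 that was -0.12 once the length trend was taken out (41 lower and -0.05 with equal sums). The cytochrome oxidase subunit Cox6a1 stood at 1281 FPKM (760.0 to 1802) in Control and at 845 (571 to 1119) in HFLN. Of 76 cytosolic ribosomal proteins, with a median length of 833 bases, 70 were lower, with a median of -0.25, or -0.10 without the length trend (49 lower and -0.04 with equal sums). Whether length or another property of these RNAs sets the fold was not tested.

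**Figure D5:**
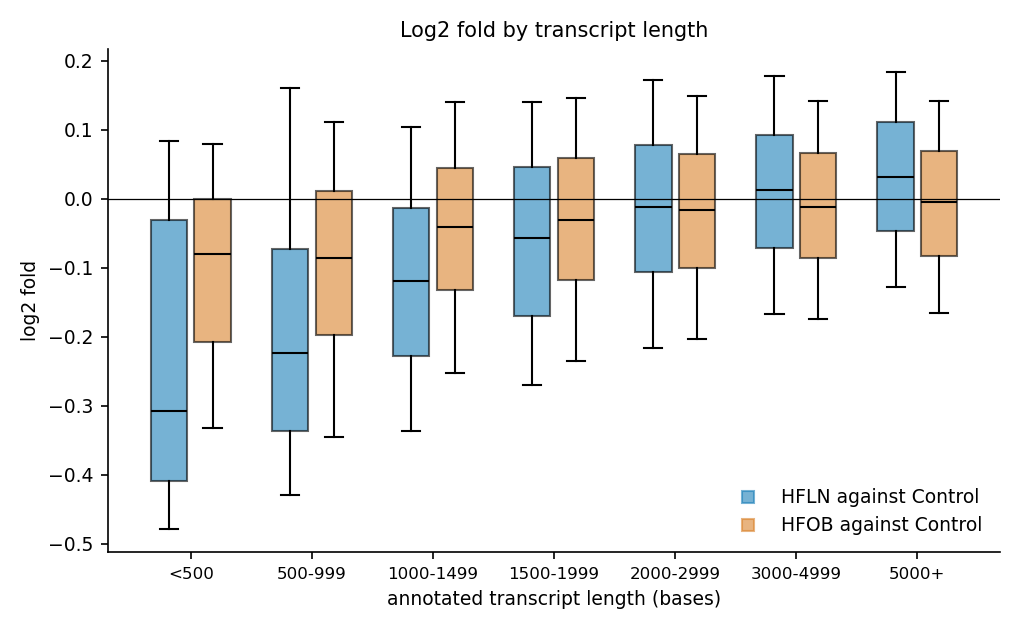
Log2 fold against Control by annotated transcript length in bases, for HFLN and HFOB, in protein-coding rows of at least 5 FPKM. Boxes span the quartiles with the median as a line, and whiskers run from the 10th to the 90th percentile; the HFLN median goes from -0.31 in the shortest class to 0.03 in the longest.

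RNA without a regular poly(A) tail differed widely between the groups, in libraries that select messenger RNA. Replication-dependent histones end in a stem-loop in place of the tail. Of 62 listed 36 were measurable, 31 of them lower, 22 past 1.5-fold, with a median of -0.79 and -0.56 without the length trend (31 lower and -0.74 with equal sums). Their intervals were the widest of any list discussed, with a median distance to the bound of 109% of the value in Control. The linker histone H1f4, for example, stood at 5.196 FPKM (0 to 19.8) in Control and at 1.14 (0 to 6.85) in HFLN. The called gene H3c2 belongs to this class. Of 98 rows of small or structural RNA, 4 were called higher and 10 lower, and 9 of these 14 had a group listed at 0. Over all 16696 rows of any class, 48 were called (0.287%), 11 higher (0.0659%) and 37 lower (0.222%), and 21 of the 48 had no symbol. No long noncoding RNA among 401 and no pseudogene among 75 was called.

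The most abundant rows among the 15 lowest log2 folds were Cmss1, Filip1l and Lars2. Cmss1 was listed at 25903 FPKM (0 to 343222) in Control, at 3713 (0 to 8348) in HFLN and at 14044 in HFOB. Filip1l, which overlaps Cmss1 on chromosome 16 in the annotation, was listed at 6843 (0 to 164061), 1263 (0 to 4051) and 6612. Lars2, a mitochondrial leucyl-tRNA synthetase, was listed at 2146 (0 to 9603), 512 (193 to 830.5) and 1347. With their log2 folds of -2.80, -2.44 and -2.07 they lay past 2-fold, yet the lower Control bound was 0 in each. Together they held 6.45% of summed protein-coding FPKM in Control, but 1.19% in HFLN and 4.34% in HFOB. What these rows count was not tested.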

How the data were processed

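Whole-ovary messenger RNA of 9 mice was sequenced, and the 3 Control and 3 HFLN mice are compared here. Per the submitters' processing notes, the tools were Cuffdiff 2.2.1.3, Cufflinks 2.2.1.0, TopHat2 2.1.0 and Trimmomatic 0.32.3, on the build mm10. Per the file headers, the deposited table holds the authors' FPKM per gene and group, with a lower and an upper bound and a status. The annotation, strand setting, scaling between libraries, depth and level of the bounds were not given in the sources used here. Whether the animals of a group were sequenced in 1 batch is likewise not given.

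The table has 33450 rows. Of 36886 RefSeq identifiers 99.2% were matched to symbols of GRCm38.p6. No symbol was found for 8920 rows, and 765 rows merge several symbols. Rows needed the status OK in both groups and at least 1 FPKM in either. Folds were taken on log2(FPKM + 1), and a call needed a fold of 2 with intervals apart. Gene length came from GENCODE, and the length trend is a running median over 501 genes. Python 3.11.15, pandas 2.3.3, NumPy 2.4.6 and matplotlib 3.10.9 were used. The calling script was tested on simulated data.

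Named genes are the called rows, the 15 highest and 15 lowest log2 folds among rows of at least 5 FPKM, the members with the widest fold and the most abundant member of each list, and cell type markers. Further list members given as examples, H2-K1, Dnah5, Tekt4 and Msln among them, were chosen after their values were seen. Members and lists were chosen with earlier results of these data known, and the histone and ribosomal protein lists were added after the table was seen. Alternatives covered the pseudocount, the minimum level, the scaling, short transcripts, merged rows, the fold and the intervals, and a scaling without 3 abundant rows was added after the data were seen. Not every gene that fits the rule for names is reported.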

Additional observations from a re-analysis of the deposited data

How the results depend on the processing

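The counts of called rows depended on the interval rule more than on the other settings tried. With the intervals ignored, all rows called came to 249 (52 higher, 197 lower) and protein-coding rows called to 73 (9 higher, 64 lower). A pseudocount of 5 FPKM left 27 rows of any class (5 higher, 22 lower) and 7 protein-coding ones (5 lower), with Arc, Fosb, Dusp5, Brinp2 and H3c2 no longer called. A minimum of 5 FPKM left 5 rows of any class higher, and leaving out transcripts under 500 bases left 7. Without merged rows, 1 protein-coding row was called higher. With equal sums 7 protein-coding rows were called lower, and a row merging Pfas with Mir3062 was called higher. Over all settings 51 of 66 counts stayed within 1.5 times the reported one. Equal sums turned the median of 18 of 47 lists. Of these, 4 had a deposited median at least 0.1 from 0, namely cholesterol synthesis (0.038), NRF2-type genes (0.035), ovulatory genes (0.049) and steroid synthesis (0.079). The other 14 moved to between 0.10 and 0.19. Rows of at least 5 FPKM as a whole had a median of 0.19 on that scale, so none of these 18 lists rose past it. With the sums made equal without Cmss1, Filip1l and Lars2, chosen after the data were seen, cholesterol synthesis (-0.039), NRF2-type (-0.037) and ovulatory genes (-0.010) stayed below 0, steroid synthesis came to 0.00032, and the 14 lay between 0.033 and 0.13. The calls then came to 3 protein-coding rows higher and 8 lower. The mean of the members had the opposite sign to the median in the endothelin (-0.40), luteal (-0.079), theca (-0.068), fatty-acid synthesis (-0.049) and Wnt (-0.058) lists. No named gene past 1.5-fold changed direction under any setting tried. No paired analysis was possible because the table gives 1 value per group. For the same reason no animal could be left out in turn. The depth is unknown, so the deposited bounds alone describe the precision.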
